A study of Mus musculus with 9 samples.

Results

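Solute carriers (gene symbols Slc, a family number, a letter and a member number) are the largest group of membrane transporters of animal cells, and 211 of them were expressed in 9 clones of E14, an established line of mouse embryonic stem cells. The members were chosen by level: of 361 protein-coding genes with a symbol of this form, 143 had a mean below 1 CPM (a gene's count scaled to a common library total) over the clones, 15 of these without a count in any clone, and 7 were set aside by name (Slc2a1, Slc2a3, Slc16a1, Slc16a3, Slc22a18, Slc38a4 and Slc25a31). The 211 that were left came from 45 families and were 1.65% of the 12822 protein-coding genes that reached the same mean. The choice used the mean level, so the height of the members is a description. The members closest above the threshold were Slc10a1 (mean of 1.015 CPM), Slc7a14 (1.016 CPM) and Slc11a1 (1.063 CPM), and those closest below it were Slc7a8 (0.999 CPM), Slc18a3 (0.992 CPM) and Slc25a45 (0.98 CPM). In 19 members the lowest clone was under 1 CPM, and in 3 members the median clone was, so these had reached the mean through their higher clones.

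Solute carriers move amino acids, sugars, ions, metals, vitamins and metabolites across the plasma membrane and the membranes of organelles, mostly driven by gradients of other ions or by exchange of one solute for another. Each family shares a fold, but members of a family can carry different cargo. In embryonic stem cells, which divide fast and draw heavily on amino acids, glutamine and glucose, transporters of nutrients and the carriers of the inner mitochondrial membrane are abundant.

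All 9 clones (numbers 1, 4, 6, 8, 10, 11, 13, 14 and 17) were derived from the same line and grown with foetal bovine serum and leukaemia inhibitory factor on gelatin, in a medium with added pyruvate, glutamine and non-essential amino acids. The series concerns clones that differ in the size of their lipid droplets. Which clone had which size is not in the labels used here, so each clone was treated as 1 sample without a group, and no test between groups was possible. Libraries were made from poly(A) RNA with a stranded kit, 1 library per clone, so that a difference between clones cannot be told apart from one between cultures or libraries.

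Library totals ranged from 10783718 estimated counts in clone 1 to 14309662 in clone 6, and 3 counts, the most that a count of 0 leaves possible, stood for 0.211 to 0.28 CPM. All 14 genes of a list of naive pluripotency markers were expressed, with a summed level of 2412 CPM in clone 11, 2626 CPM in clone 10 and 3665 to 3955 CPM in the other 7. Single markers differed, with Dppa3, Klf5 and Tdgf1 lowest in clones 17, 4 and 14, and the others in clone 10 or 11. Markers of fibroblasts and smooth muscle had summed levels of 143 and 106 CPM in clones 11 and 10, and between 11.3 and 32.8 CPM elsewhere. Of the 8 that were expressed, 6 had clones 10 and 11 as the highest pair, against 10.2% of expressed coding genes. Among these 6, Col1a2, Col3a1 and Acta2 reached a mean of 1 CPM only through those clones, so the count is a description. Lum and Dcn, which mark fibroblasts, stayed at or under 0.622 CPM in each clone. Of 8 trophoblast markers, the keratins Krt8 and Krt18 together had 455 and 443 CPM in clones 11 and 10, against 25.8 to 94.6 CPM in the other 7. The remaining 6 summed to 77.1 and 57.6 CPM in clones 11 and 10, within the 45.1 to 94.4 CPM of the other 7. Tfap2c held most of these sums. Clones 10 and 11 were the highest pair in 4 of the 7 expressed trophoblast markers, against 10.2% of expressed coding genes. These were Krt8, Krt18, Cdx2 and Hand1. Cdx2 had 5.6 and 3.11 CPM in clones 11 and 10 and 0.48 to 3.04 CPM elsewhere. Hand1 had 3.11 and 2.96 CPM, against 0.146 to 0.706 CPM, and reached a mean of 1 CPM only through those clones. Primitive streak markers summed to 60.3 and 33.8 CPM in clones 11 and 10, and to 8.13 to 18.3 CPM elsewhere. Clones 10 and 11 were the highest pair in 3 of the 5 expressed ones, against the same 10.2%. Primitive endoderm markers summed to 97.8 and 133 CPM in clones 11 and 10, mostly through Col4a1, against 37.8 to 71.7 CPM. The pair was highest in 2 of the 6 expressed ones. Clones 10 and 11 thus differed from the rest in part of each of these lists of genes that are not transporters. Whether a shift in a bulk culture came from fewer cells of a kind or from less RNA per cell cannot be told apart.

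Promoters are shown for 5 members that are described below. They are the carriers of the amino acid list in whose windows a response element was found (2 of the 7 with a window, of 10 in the list). The others are the zinc transporters with the largest and the smallest range over clones, and a mitochondrial carrier that was high in clones 10 and 11 alone. RefSeq windows (GRCm38.p6) of 250 bases before to 50 bases after a start site were found for 158 of the members. The window nearest to the start of the member's most abundant transcript was taken. Each is given in the direction of the gene. Capitals mark TGATGNAA, the core of the amino acid response element, in Slc7a11 (chr3:50443564-50443863, minus strand) and Slc1a4 (chr11:20332664-20332963, minus strand). They mark TGCACNC or TGCGCNC, the core of the metal response element, in Slc39a8 (chr3:135825407-135825706, plus strand) and Slc30a5 (chr13:100833378-100833677, minus strand), and GGGCGG, the GC box, in Slc25a24 (chr3:109122899-109123198, plus strand). Both strands were searched, so that capitals can also spell the reverse complement.
Slc7a11: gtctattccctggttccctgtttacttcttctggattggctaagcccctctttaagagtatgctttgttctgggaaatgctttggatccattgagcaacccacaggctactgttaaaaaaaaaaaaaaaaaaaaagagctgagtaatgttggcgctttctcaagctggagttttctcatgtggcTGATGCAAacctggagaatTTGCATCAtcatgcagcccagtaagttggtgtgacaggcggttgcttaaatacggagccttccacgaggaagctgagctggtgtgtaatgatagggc
Slc1a4: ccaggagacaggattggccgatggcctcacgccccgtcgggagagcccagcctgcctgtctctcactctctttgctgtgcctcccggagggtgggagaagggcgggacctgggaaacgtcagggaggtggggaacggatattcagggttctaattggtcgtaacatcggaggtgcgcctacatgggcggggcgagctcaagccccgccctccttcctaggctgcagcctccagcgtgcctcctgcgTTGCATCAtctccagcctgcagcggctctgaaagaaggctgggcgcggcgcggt
Slc39a8: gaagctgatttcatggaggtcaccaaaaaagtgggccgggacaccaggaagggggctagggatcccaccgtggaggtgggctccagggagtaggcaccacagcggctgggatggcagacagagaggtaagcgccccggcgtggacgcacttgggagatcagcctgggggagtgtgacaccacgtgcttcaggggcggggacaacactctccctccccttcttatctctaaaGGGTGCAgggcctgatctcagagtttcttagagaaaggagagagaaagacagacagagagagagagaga
Slc30a5: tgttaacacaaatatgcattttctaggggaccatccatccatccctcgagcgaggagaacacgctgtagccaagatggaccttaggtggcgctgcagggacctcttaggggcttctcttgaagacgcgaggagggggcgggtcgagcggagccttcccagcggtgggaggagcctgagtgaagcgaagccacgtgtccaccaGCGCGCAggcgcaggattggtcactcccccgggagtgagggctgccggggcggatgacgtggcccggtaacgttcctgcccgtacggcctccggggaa
Slc25a24: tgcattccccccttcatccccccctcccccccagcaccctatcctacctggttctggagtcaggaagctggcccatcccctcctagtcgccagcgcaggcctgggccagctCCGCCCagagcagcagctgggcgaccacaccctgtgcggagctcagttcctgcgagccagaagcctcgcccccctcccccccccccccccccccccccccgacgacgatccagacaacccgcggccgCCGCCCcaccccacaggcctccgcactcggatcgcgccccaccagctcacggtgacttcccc

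The amino acid element core was present in 4 of the 158 member windows (2.53%), in Slc1a4, Slc7a11, Slc26a10 and Slc50a1, against 3.97% of all 32851 windows of the genome. Slc7a11 held it on both strands, starting 66 and 47 bases before the start site. A metal element core lay in 55 member windows (34.8%), against 25.7% of all windows, and in 9 of the 20 windows of metal transporters. The window of Slc39a8 lay 433 bases from the start of its main transcript. The GC box was found in 120 member windows (75.9%), against 35.7% of all windows. The members' windows were rich in CpG, with a median of 19 CpG dinucleotides, against 7 over all windows. Among the 15 members with a window and a range over clones of 2 or more the median was 13, and among the 22 with a range under 0.5 it was 20.5. The windows of Slc7a11 and Slc39a8 held 4 and 9 CpG, that of Slc30a5 held 24, and those of Slc1a4 and Slc25a24 held 21 and 19. The set of all windows was not limited to expressed coding genes, as the members are. The shares and medians set against it therefore do not set transporters apart from other expressed genes. These matches describe letters in a window and say nothing about binding.

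Levels of different members were compared as TPM (transcript abundance scaled for length and library by the authors' tool). The members together took between 5127 TPM in clone 1 and 5772 TPM in clone 11, with a median of 5565 TPM. The 3 most abundant held 26.7 to 32% of that sum. A median of 50 TPM or more was reached by 21 members, and 82 stayed under 5 TPM. The repertoire was thus uneven, with a few carriers far above the rest.

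The most abundant were carriers of the inner mitochondrial membrane. Slc25a5, an exchanger of ADP for ATP, stood between 816 and 971 TPM with a median of 919 TPM. Slc25a3, which imports phosphate for ATP synthesis, had a median of 415 TPM (312 to 453 TPM), and Slc25a4, the second ADP and ATP exchanger, a median of 267 TPM (190 to 395 TPM). Slc25a39, a glutathione carrier of mitochondria, had a median of 157 TPM. Of the 37 mitochondrial members, 9 had a median of 50 TPM or more, the most of any class, and the lowest of them was Slc25a24 with 1.28 TPM.

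Amino acid carriers came next. Slc3a2, the heavy chain that brings several light chains of the Slc7 family to the cell surface, had a median of 187 TPM (165 to 219 TPM). Its partner Slc7a5, an exchanger of large neutral amino acids, had a median of 88.9 TPM, and Slc7a11, the cystine and glutamate exchanger that also needs Slc3a2, a median of 2.1 TPM. Slc38a2, a sodium-coupled importer of glutamine and alanine, stood at 126 TPM (76.4 to 181 TPM), Slc7a3, a carrier of arginine and lysine, at 96.2 TPM, and Slc6a6, the taurine transporter, at 88.3 TPM. Of 35 amino acid members, 7 had a median of 50 TPM or more and 16 stayed under 5 TPM.

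Outside these classes, high levels were rare. Slc20a1, a sodium-coupled phosphate importer, was the only 1 of 33 ion transporters with a median of 50 TPM or more (170 TPM, between 146 and 226 TPM). Slc29a1, an equilibrative nucleoside transporter, was the only such member among 22 carriers of vitamins, nucleosides and lipids (157 TPM, between 101 and 193 TPM). The most abundant metal transporter was Slc39a7, which releases zinc from the endoplasmic reticulum, with 96.1 TPM, and the most abundant member of the nucleotide sugar family was Slc35b1, a nucleotide exchanger of the endoplasmic reticulum, with 61.2 TPM. In the classes of sugars and of carboxylates and organic ions no member reached a median of 50 TPM, the highest being Slc45a4 with 32.1 TPM and Slc17a9, the vesicular nucleotide transporter, with 17.1 TPM. The glucose and monocarboxylate transporters Slc2a1, Slc2a3, Slc16a1 and Slc16a3 were set aside by the rule and are not counted in these classes.

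Variation over clones was described as the range, the highest minus the lowest clone in log2 CPM. CPM values from here on are scaled by effective library size, and the range adds a prior count that holds down the folds of low genes. A range of 1 or more was found in 84 of the 211 members (39.8%), against 33.7% of the 12822 expressed protein-coding genes. A range of 2 or more was found in 17 members (8.06%), against 7.17%, and a range under 0.5 in 32 members (15.2%), against 23.6%. The median range was 0.89 in the members and 0.77 in all expressed protein-coding genes, and it was 0.84 in the 24 expressed transporters of the ABC family, which use ATP to move their cargo. Without clones 10 and 11, 66 members had a range of 1 or more, a share of 31.3% against 26% of coding genes, and 7 had one of 2 or more, 3.32% against 4.53%.

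**Figure D1:**
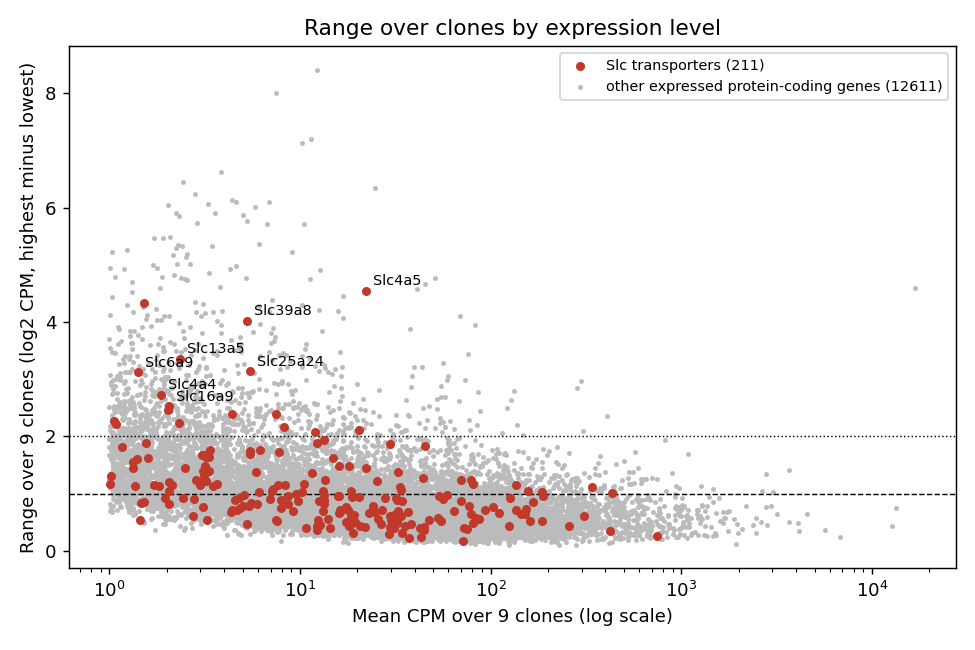
Range over 9 clones (log2 CPM, highest minus lowest clone) against mean CPM on a log axis, for the 211 Slc members in red and the other expressed protein-coding genes in grey, with lines at ranges of 1 and 2. Ranges narrow up to 100 CPM in both sets, and Slc4a5 stands out among the members above 20 CPM.

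Up to 100 CPM, ranges narrowed with level in members and in other genes. Among members with a mean of 1 to 5 CPM, 71.4% had a range of 1 or more, against 76.6% of all coding genes at that level, and at 5 to 20 CPM the shares were 37.1% and 38.3%. They were 20.3% of members and 16.7% of all genes at 20 to 100 CPM. At 100 CPM or more, 5 of 21 members (23.8%) had such a range, against 11.9%, and the median range was 0.72 in members, against 0.56. At 20 to 100 CPM it was 0.65 and 0.61. Among those 5 were Slc25a4, Slc29a1 and Slc38a2, and without clones 10 and 11 the range of Slc29a1 was 0.45 and that of Slc38a2 0.78. Leaving out clone 4 brought Slc25a4 to 0.81, leaving out clone 14 brought it to 0.97, and leaving out clone 10 brought Slc29a1 to 0.54. The classes differed in their shares. Carriers of carboxylates and organic ions had the highest share with a range of 1 or more, 15 of 22 with a median range of 1.29, and they were also the least abundant class with a median of 2.12 TPM. Amino acid carriers followed with 19 of 35 (median 1.03) and ion transporters with 16 of 33 (median 0.97). In vitamin, nucleoside and lipid carriers it was 9 of 22, in sugar carriers 6 of 15 and in metal transporters 9 of 26. The steadiest were the mitochondrial carriers with 7 of 37 (median 0.68) and the nucleotide sugar transporters with 3 of 21 (median 0.72). Over all expressed coding genes the share was 33.7%. The classes were not set against coding genes of their own level. Since the share fell with level up to 100 CPM, the order of the classes does not set cargo apart from level. The part of level in this order was not tested.

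The members with the largest ranges were low or moderate in level. Slc4a5, a sodium bicarbonate cotransporter, had 37.9, 52.4, 33.3, 2.79, 13.4, 20.8, 35, 2.62 and 2.09 CPM in clones 1, 4, 6, 8, 10, 11, 13, 14 and 17. Clones 8, 14 and 17 lay far below the others and did not overlap with them. The highest clone exceeded the lowest 25.0-fold (exact 95% counting interval 17.3 to 37.6), a range of 4.55. This interval and those below cover counting error only, and since the clones were picked as the highest and the lowest, they carry no test. Slc4a5 lies on chromosome 6 (GRCm38 83219828 to 83304945, plus strand), and its 72 expressed coding neighbours within 5 Mb had a median between -0.04 and 0.06 log2 units from their own medians over clones in each clone.

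Slc39a8, which imports zinc and manganese, had a level of 19.5 CPM in clone 10, of 12.7 CPM in clone 11 and between 1.06 and 3.57 CPM in the others. Its range of 4.02 corresponded to an 18.3-fold difference (10.7 to 34). Slc25a24, a mitochondrial carrier that exchanges ATP-Mg for phosphate and is controlled by calcium, stood at 16.4 CPM in clone 10, at 16 CPM in clone 11 and between 1.73 and 3.5 CPM in the rest. In both members the 2 clones lay above the other 7 without overlap, with gaps of 1.78 log2 units in Slc39a8 and 2.14 in Slc25a24. Without them the ranges were 1.61 in Slc39a8 and 0.95 in Slc25a24. The neighbours of both on chromosome 3 moved by at most 0.06.

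Further members with large ranges had other orders of clones. Slc13a5, a citrate importer, had 6.62, 4.67 and 3.6 CPM in clones 1, 13 and 6, and between 0.51 and 1.59 CPM in the other clones. Slc6a9, the glycine transporter, had 3.14, 2.38, 2.24 and 2.04 CPM in clones 17, 10, 8 and 14, 1.38 CPM in clone 11, and 0.23 to 0.57 CPM in clones 1, 4, 6 and 13. Its lowest clone rested on 3 counts (13.7-fold, interval 4.43 to 69.6). Slc6a9 reached a mean of 1 CPM only through clones 8, 10, 14 and 17, so its height in them is a description. Of its exon bases, 27.8% overlap those of Ccdc24 on the opposite strand, a gene that peaked in clone 13 rather than with Slc6a9. The sources used here do not give whether counting used strand.

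Other large ranges lay between 2.27 and 2.73. Slc4a4, a relative of Slc4a5 with the same kind of cargo, ran the other way from it in clones 1 and 4, with its highest levels of 4.03 and 3.54 CPM in clones 11 and 10 and its lowest of 0.48 and 0.534 CPM in clones 1 and 4. Slc16a9, a monocarboxylate family member linked to the export of carnitine, was highest in clone 13 (4.05 CPM) and lowest in clone 10 (0.578 CPM), without which its range of 2.53 was 1.63. Slc13a4, a sulfate importer, was lowest in clones 14 and 17 (0.442 and 0.879 CPM) and between 1.58 and 3.12 CPM elsewhere. Slc5a5, the iodide importer of the thyroid, grouped with the sugar carriers by its family, had 9.68 CPM in clone 11, 8.67 CPM in clone 10 and 1.72 to 4.73 CPM in the others. Slc11a1 is described with clones 1, 6 and 13.

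**Figure D2:**
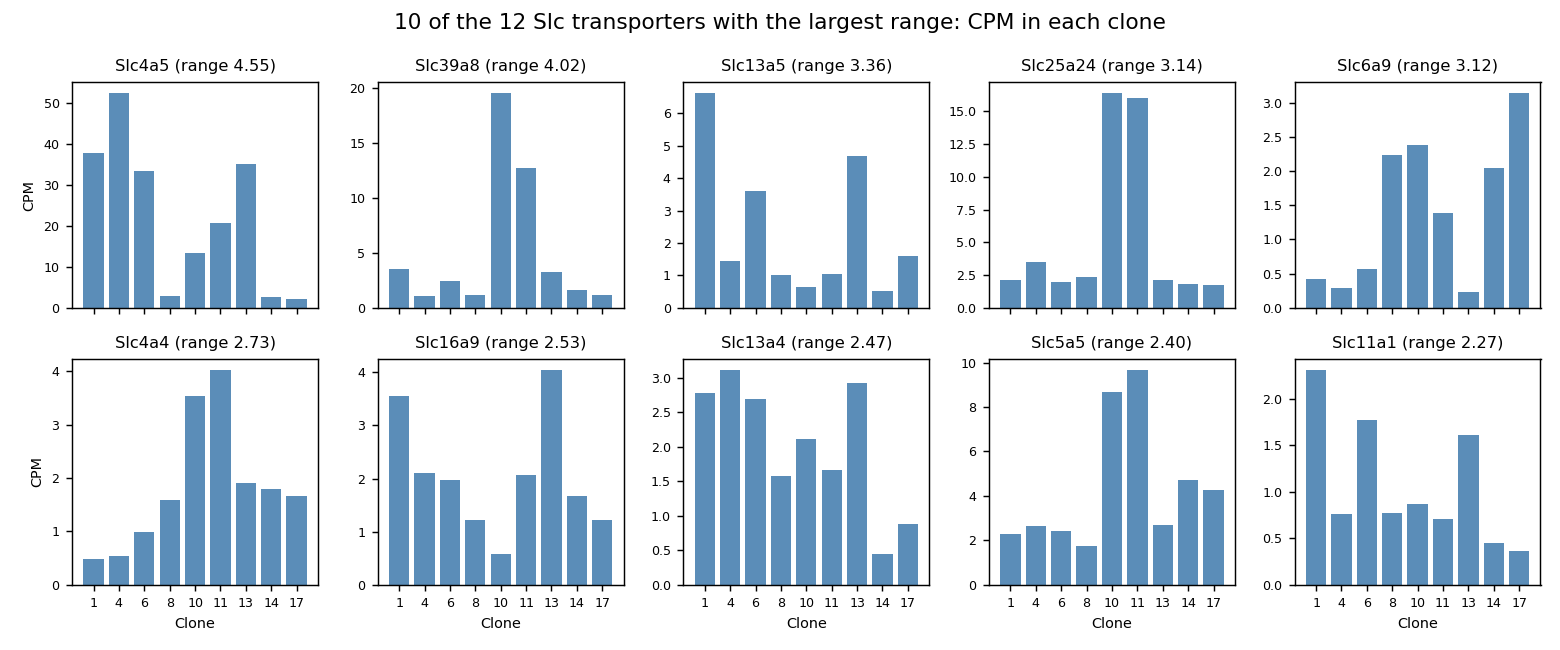
CPM in each of the 9 clones (bars, scaled by effective library size, each panel with its own axis from 0) for 10 of the 12 members with the largest range. Slc39a8, Slc25a24 and Slc5a5 stand highest in clones 10 and 11, while Slc4a5 is lowest in clones 8, 14 and 17.

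To see which clones parted company, the clones were ordered for each member and split at the widest gap. A gap of 0.5 or more was present in 41 members (19.4%), against 17.4% of expressed coding genes. Clones 8, 14 and 17 fell below such a gap in 7 members (3.32%, against 1.9%), and clones 10 and 11 rose above it in 6 (2.84%, against 2.47%). Clone 4 alone lay below it in 4 members (1.9%, against 1.03%), clone 10 alone in 3 (1.42%, against 0.296%) and clones 10 and 11 together in 3 (1.42%, against 0.406%). The other gaps were spread over many sets of clones, with at most 2 members for each. Members named with these gaps but outside the naming rule, Slc22a23, Slc43a3, Slc16a13, Slc38a9, Slc38a7, Slc7a2, Slc35d1, Slc6a7, Slc6a8 and Slc39a4, were chosen after their values were seen.

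Among the 6 members above the gap in clones 10 and 11 were Slc39a8, Slc25a24, Slc4a4, Slc5a5 and Slc22a23, an orphan of the organic ion transporters with 5.6 CPM in clone 11, 4.41 CPM in clone 10 and 1.06 to 1.89 CPM elsewhere. Counting members of any range, clones 10 and 11 were the highest 2 in 21 members (9.95%, against 10.2%), 13 of them with a range of 1 or more. The 3 members below the gap in both clones were Slc6a8, the creatine importer, with 50.4 CPM in clone 10, 52.3 CPM in clone 11 and 76.0 to 113 CPM in the others, Slc39a4 and Slc6a7. Slc39a4, a zinc importer of the cell surface, stood at 20.8 CPM in clone 10, at 22.5 CPM in clone 11 and between 31.9 and 38.7 CPM in the others. Slc6a7, a proline transporter, had 0.578 and 0.622 CPM in clones 10 and 11, below 1.15 to 2.08 CPM in the others. Of these zinc importers, Slc39a8 was high and Slc39a4 low in the same clones. Of the markers given above, 6 of the 8 expressed ones of fibroblasts and smooth muscle were also highest in clones 10 and 11. This compares with 10.2% of expressed coding genes, and some of the 6 reached a mean of 1 CPM only through those clones. The pair was also highest in 4 of the 7 expressed trophoblast markers, although those other than Krt8 and Krt18 summed to levels within those of the other clones. Streak and primitive endoderm markers had their highest sums in clones 10 and 11, and Lum and Dcn stayed low. The naive markers had their lowest sums there, with Dppa3, Klf5 and Tdgf1 lowest in other clones. The part of these differences in the levels of the members was not tested.

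Among the 7 members below the gap in clones 8, 14 and 17 were Slc4a5, Slc43a3, a purine nucleobase carrier on chromosome 2, and Slc38a9, an arginine-sensing carrier of the lysosome on chromosome 13. Slc43a3 had 1.36, 1.38 and 1.52 CPM in clones 8, 14 and 17, and 3.75 to 4.98 CPM elsewhere. Slc38a9 had 6.59, 7.07 and 6.42 CPM in them, and 10.7 to 13.2 CPM elsewhere. The other 4 all lie on chromosome 11. Slc39a11, a zinc transporter, had 7.66, 8.16 and 8.08 CPM in clones 8, 14 and 17 and 15.6 to 33.6 CPM elsewhere, and Slc46a1, which takes up folate together with protons, had 6.16, 5.54 and 5.56 CPM in those clones against 13.1 to 21.6 CPM in the rest. Slc16a13, of the monocarboxylate family, and Slc25a11, which exchanges oxoglutarate for malate across the inner mitochondrial membrane, showed the same order, the second with 39.9 to 43.5 CPM in the 3 clones and 68.8 to 94.5 CPM in the rest.

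Chromosome 11 as a whole was lower in these clones. The median of its 1050 expressed coding genes lay at -0.40, -0.37 and -0.39 log2 units from their own medians over clones in clones 8, 14 and 17, and between 0.01 and 0.11 in the others. Its 21 members lay at -0.42, -0.43 and -0.21 in the 3 clones. Clones 8, 14 and 17 were the lowest 3 in 12 of the 21 members, which at 57.1% was close to the 61.0% of all coding genes of the chromosome. Away from chromosomes 8 and 11 they were the lowest 3 in 24 of 175 members (13.7%, against 10.3%), and the highest 3 in 12 of them (6.86%, against 13%).

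Chromosome 8 went the other way. Its 695 expressed coding genes had medians of 0.28, 0.26, 0.32 and 0.32 in clones 8, 10, 14 and 17, and -0.20 in clones 1, 4, 11 and 13, on the same scale. Clones 8, 14 and 17 were the highest 3 in 9 of the 15 members there (60.0%), against 37.6% of the chromosome's coding genes. The 15 include the abundant Slc25a4 and Slc7a5 as well as Slc38a7, a lysosomal exporter of glutamine, which had 44.7, 42.3 and 56.4 CPM in clones 8, 14 and 17 and 15.4 to 26.9 CPM in the others. Slc25a4 had 470, 424, 408 and 385 CPM in clones 14, 17, 10 and 8, and 216 to 302 CPM in clones 1, 4, 6, 11 and 13. The chromosome on which a member lies and the clones in which it was high moved together, and the part of gene dose in this was not tested.

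With the median of its chromosome taken off in each clone, the range of Slc25a4 fell to 0.60, against 1.12 as measured, and that of Slc7a5 to 0.43, against 0.95. Slc25a11 fell to 0.75, against 1.24, Slc35b1 to 0.54, against 0.90, and Slc25a39 to 0.60, against 0.86. By contrast Slc39a11 kept a range of 1.62 and Slc46a1 one of 1.48, while that of Slc5a5 on chromosome 8 grew to 2.88, against 2.40. The number of members with a range of 1 or more became 75, a share of 35.5% against 31.1% of coding genes treated alike.

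**Figure D3:**
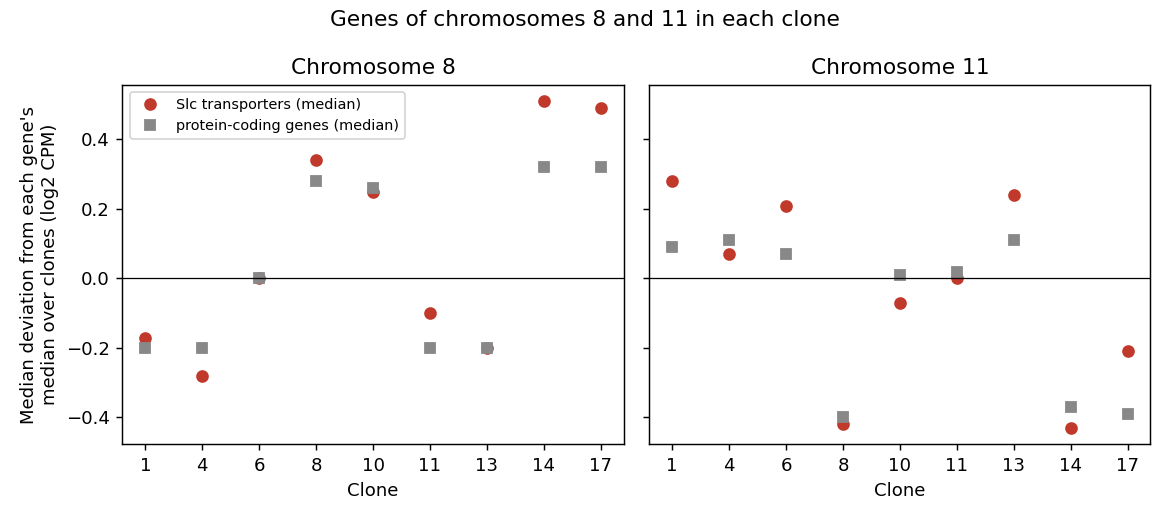
Median deviation from each gene's own median over clones (log2 CPM) in each of the 9 clones, for the Slc members (red circles) and all expressed protein-coding genes (grey squares) of chromosomes 8 and 11. On chromosome 11 clones 8, 14 and 17 lie lowest in both sets, and on chromosome 8 clones 8, 10, 14 and 17 lie highest.

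Other members were highest in clones 1, 6 and 13. Slc15a1, the importer of small peptides on chromosome 14, had 17.2, 18.3 and 18 CPM in clones 1, 6 and 13 and 4.2 to 12.5 CPM elsewhere, beside 24 expressed coding neighbours within 5 Mb whose median lay at 0.20, 0.32 and 0.43 in those clones. Its range of 2.08 was 1.24 without clone 11. Slc13a5 and Slc11a1 had the same 3 clones on top, the second a metal exporter of macrophage vesicles with 2.31, 1.77 and 1.61 CPM in them and 0.361 to 0.867 CPM elsewhere. Slc11a1 reached the threshold, with a mean of 1.063 CPM, only through these 3 clones, so its height in them is a description. For Slc11a1 on chromosome 1 the 55 neighbours stayed within -0.04 to 0.07. The part of the region on chromosome 14 in the level of Slc15a1 was not tested.

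A clone that stood alone was rare. By a distance of 1 or more to its nearest neighbour, a clone was apart in 1 member (0.474%), against 1.09% of expressed coding genes. This was Slc35e4, an orphan of the nucleotide sugar family on chromosome 11, with 3.08 CPM in clone 8, 6.43 to 8.43 CPM in clones 1, 4, 6, 13, 14 and 17, and 13.1 and 14.3 CPM in clones 11 and 10. With the chromosome's median taken off the distance was under 1, and without clone 8 the range of 2.16 was 1.14. Slc35f2, another member of that family, known from human cells as the importer of a cytotoxic drug, was low in clone 4 alone, with 21.6 CPM there, 34.8 CPM in clone 11 and 44.3 to 52.4 CPM elsewhere, and without clone 4 its range of 1.27 was 0.59. Clone 4 was likewise below a gap of 0.5 or more in Slc25a42, which carries coenzyme A into mitochondria, in Slc7a2, a carrier of arginine and lysine, and in Slc35d1, which carries nucleotide sugars into the endoplasmic reticulum.

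Cells sense a shortage of amino acids through the kinase GCN2 and the transcription factor ATF4, which turns on a set of amino acid carriers and enzymes through the response element shown above. A list of 10 carriers known from this response was all expressed. Slc7a1, which imports arginine and lysine, stood at 93.1 CPM in clone 17 and at 68.4 CPM in clone 8, and was at 26.1 to 42.3 CPM in the other 7, so that the 2 clones did not overlap with the rest. Its highest level exceeded the lowest 3.57-fold (3.17 to 4.03). Slc7a1 was the 1 carrier of the 10 with clones 8 and 17 as the highest pair, against 11.3% of expressed coding genes, and 5 of the 10 were highest in clone 17, against 11.8%.

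The other carriers of the list kept different orders. Slc7a5 had 267, 225 and 219 CPM in clones 17, 14 and 8, and its lowest level was 138 CPM in clone 11. It lies on chromosome 8, whose coding genes had medians of 0.28, 0.32 and 0.32 in clones 8, 14 and 17 and -0.20 in clone 11. With that median taken off, as given above, its range was smaller. Slc3a2 was also highest in clone 17 (226 CPM) and lowest in clones 1 and 11 (158 CPM each), a small range of 0.52. Slc1a5, an exchanger of glutamine and other neutral amino acids, ranged over 0.66 with 28.9 CPM in clone 17 at the top and 18.3 CPM in clone 10 at the bottom. Slc6a9, described above, completed the 5, and it reached the threshold only through clones that include clone 17.

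Slc1a4 and Slc7a11, whose windows hold the element core, did not peak in clone 17. Slc1a4, an exchanger of alanine, serine and cysteine, had 23.7 CPM in clone 11, 6.34 CPM in clone 14 and 9.49 to 14.4 CPM in the other 7, and without clone 11 its range of 1.88 was 1.16. Slc7a11 peaked in clone 10 at 17.5 CPM, was lowest in clone 6 at 9.79 CPM, and stood at 11.2 CPM in clone 17. Slc38a2 peaked at 550 and 525 CPM in clones 11 and 10, and was lowest in clone 1 with 273 CPM, and leaving clone 1 out brought its range to 0.62, against 1.01. Slc43a1, a carrier of large neutral amino acids, peaked in clone 10 (11 CPM) and was lowest in clone 17 (5.56 CPM), without which its range of 0.96 was 0.58. Slc7a3, with the same cargo as Slc7a1, was highest in clone 1 (176 CPM) and lowest in clones 10 and 11 (113 and 114 CPM).

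Of 13 expressed genes of the response that are not carriers, 10 were highest in clone 17, against 11.8% of expressed coding genes. In 6 of them clones 8 and 17 were the highest pair, against 11.3%. The list was chosen with earlier results of these data known, so these counts are a description. Nupr1, 1 of the 6, reached a mean of 1 CPM only through clones 8 and 17. It had 4.22 and 4.33 CPM there and 0.192 to 1.37 CPM elsewhere. Atf4 had 202 and 186 CPM in clones 17 and 8, and 84.3 to 124 CPM elsewhere. Asns, which makes asparagine, had 367 and 366 CPM in the same clones and 196 to 272 CPM in the others. The ATF4 targets Chac1 and Trib3 had 5.63 and 18.8 CPM in clone 17, and 4.01 and 13.9 CPM in clone 8, above each other clone. Atf3 instead peaked in clones 11 and 10, at 6.5 and 5.2 CPM, against 0.38 to 1.66 CPM elsewhere. Cebpb also peaked in clone 11, at 3.69 CPM, with 2.75 CPM in clone 17 and 1.56 CPM in clone 8. Ddit4 ran the other way, with its lowest levels of 18.5 and 22.7 CPM in clones 8 and 17, against 25.6 to 47.9 CPM elsewhere. The carriers of the list were more mixed, with 5 highest in clone 17, 2 in clone 10, 2 in clone 11 and 1 in clone 1.

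**Figure D4:**
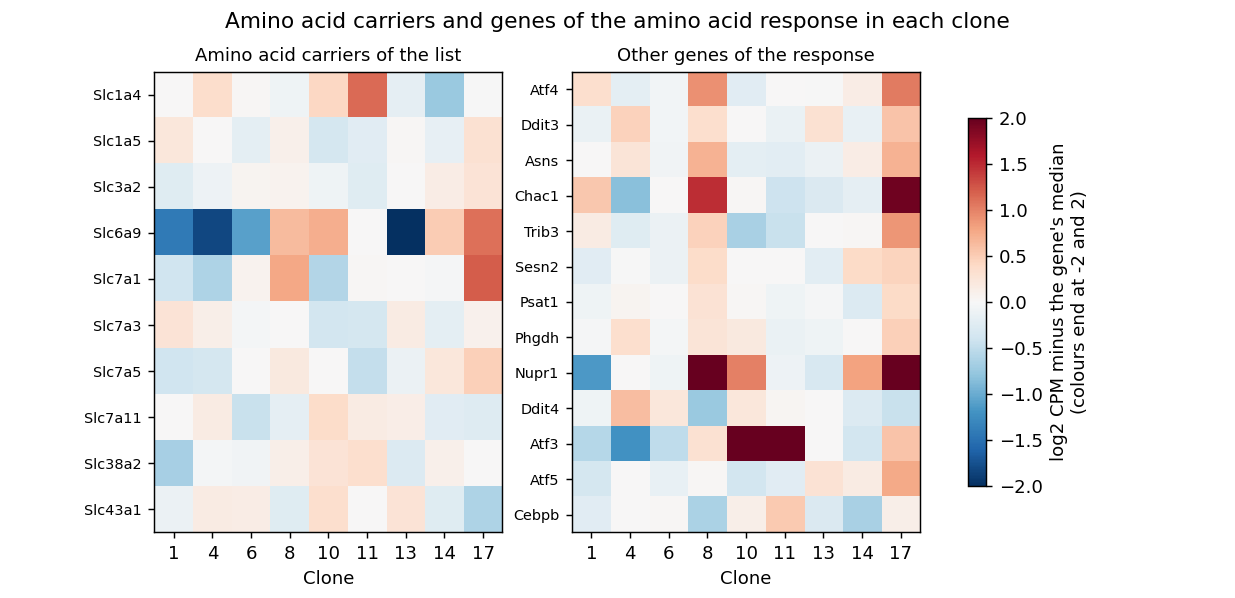
Each gene's log2 CPM minus its median over the 9 clones (colours end at -2 and 2), for the 10 amino acid carriers of the list on the left and the 13 other expressed genes of the response on the right. Clones 8 and 17 are red for Atf4, Asns, Chac1 and Trib3 and for Slc7a1, while the remaining carriers differ in which clones are high.

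Variable members outside these sets had smaller ranges. Among sugar carriers, Slc5a3, which imports myo-inositol and responds to osmotic stress, had 27, 26.1, 26.1 and 21.8 CPM in clones 8, 10, 17 and 14, 17.9 CPM in clone 11 and 9.52 to 13 CPM in clones 1, 4, 6 and 13. Slc2a5, the fructose importer, and Slc2a4, the glucose carrier that insulin brings to the surface of muscle and fat cells, were low at medians of 1.7 and 1.08 TPM, with ranges of 1.67 and 1.56. Slc5a3 shares 1.46% of its exon bases with Mrps6 on the same strand. Among vitamin carriers, Slc52a3, a riboflavin importer, peaked in clone 17 (8.15 CPM) and was lowest in clone 10 (2.31 CPM), without which its range of 1.75 was 1.02. Slc46a3, a lysosomal relative of Slc46a1, peaked in clone 4 (6.08 CPM) and was lowest in clone 17 (1.8 CPM). Slc23a4, a nucleobase carrier known from rodents, had 5.1 CPM in clone 1 and 1.73 CPM in clone 8.

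Metal, ion and mitochondrial members with moderate ranges completed the named set. Slc31a2, a copper carrier, peaked in clone 1 (15.8 CPM) and was lowest in clone 11 (6.93 CPM). Without clone 1 its range of 1.17 was 0.97. Slc24a1 and Slc24a5, exchangers of sodium for calcium and potassium, were near the threshold of expression, with ranges of 1.88 and 1.81. Slc24a1 was lowest in clone 1 with 0.576 CPM, against 1.11 to 2.53 CPM elsewhere, and its range without that clone was 1.09. For Slc24a5, 39.5% of the exon bases overlap Myef2 on the opposite strand, which was far more abundant at 162 CPM or more in each clone, so that its own level is uncertain. Slc25a35, a mitochondrial orphan on chromosome 11, had a range of 1.40 that became 0.95 without its chromosome's shift, and likewise without clone 14. Of its exon bases, 31.3% overlap Rangrf on the opposite strand, a gene at 51.1 to 110 CPM. Both peaked in clone 1 and had their lowest 3 levels in clones 8, 14 and 17, so that the level of Slc25a35 is uncertain. Slc25a42 on chromosome 8 had 5.01 CPM in clone 8 and 1.8 CPM in clone 4, without which its range of 1.40 was 0.81. Slc35d2 had a range of 1.15, which was 0.68 without clone 14 and 0.84 without clone 13. Slc35f5 had one of 0.95, which was 0.63 without clone 11. Slc10a1, the bile acid importer of the liver, had a range of 1.16, or 0.83 without clone 13, and Slc7a14, a lysosomal member of the Slc7 family, had 1.31 at no more than 1.6 CPM.

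**Figure D5:**
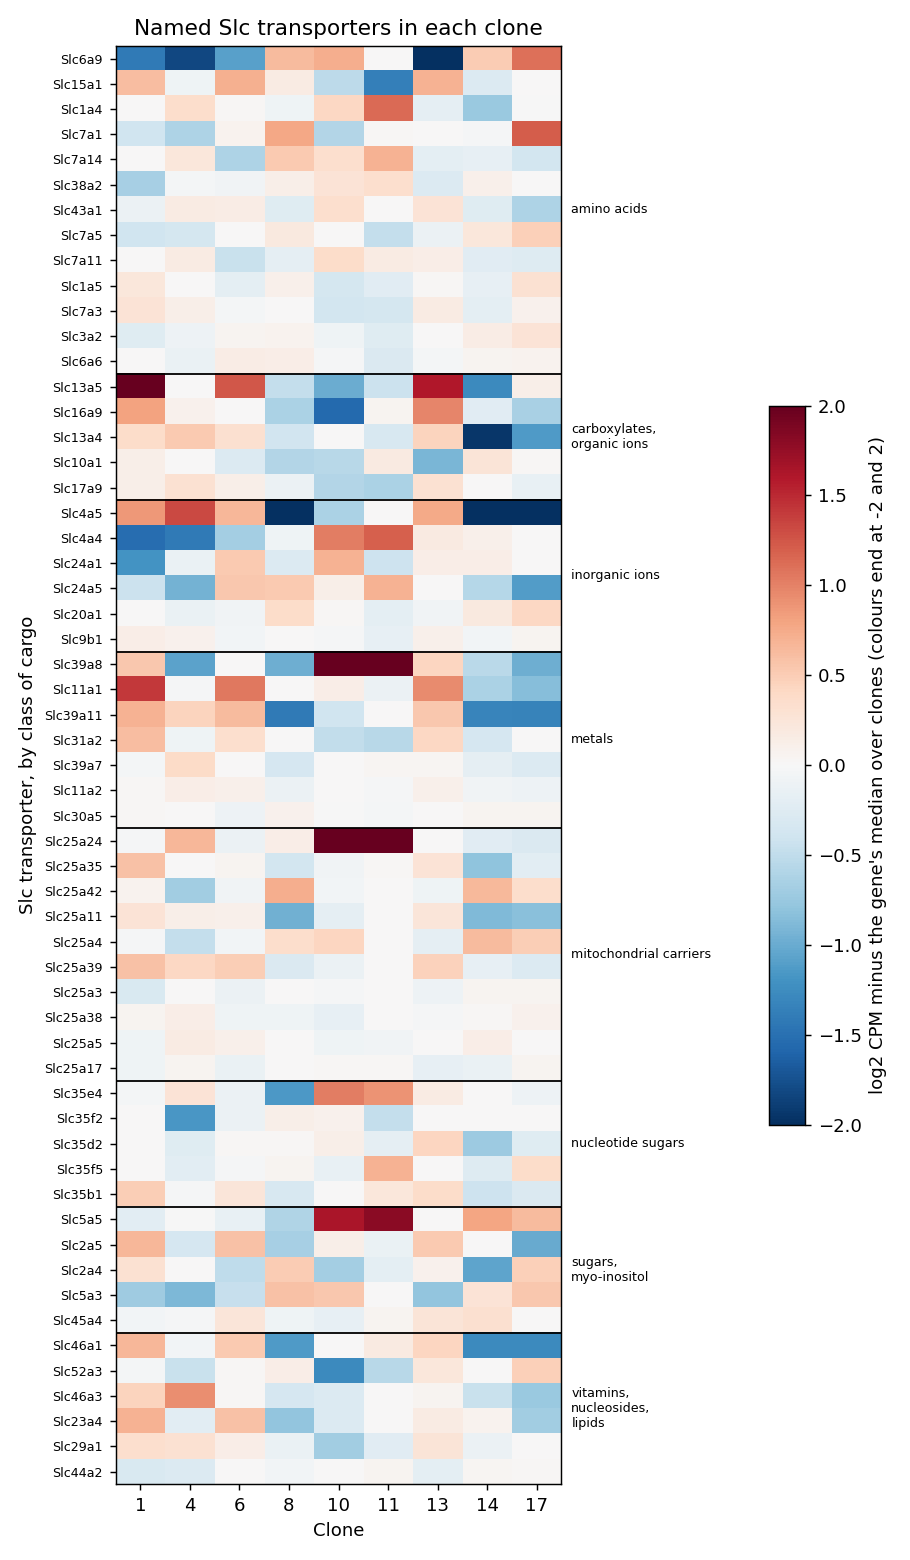
Each named member's log2 CPM minus its median over the 9 clones (colours end at -2 and 2), with the members ordered by class of cargo and, within it, by range. Clones 10 and 11 share the darkest red in Slc39a8 and Slc25a24, and clones 8, 14 and 17 the darkest blue in Slc4a5, while the lower rows of the mitochondrial and metal classes are nearly white.

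Steady members were found in several classes. From a mean of 20 CPM upward, the smallest range was 0.18 in Slc30a5, which loads zinc into the secretory pathway, with 75.1 CPM in clone 8 at the top and 66.2 CPM in clone 6 at the bottom. This 1.13-fold difference had an interval of 1.04 to 1.24. Slc25a17, the carrier of cofactors in peroxisomes, followed with 0.23, Slc11a2, an iron importer, with 0.25, and Slc25a5 with 0.26. Slc25a5 varied between 690 and 825 CPM over the clones, while its relative Slc25a4 varied over 1.12. Slc25a38, a glycine carrier of mitochondria needed for haem synthesis, had a range of 0.31, Slc25a3 one of 0.35 and Slc44a2, a choline transporter, one of 0.37. In Slc25a3, clone 1 with 353 CPM lay below the other 8 at 403 to 452 CPM, and without it the range was 0.16. In Slc30a5 it was 0.12 without clone 6. On log2(TPM + 1) the range was 0.36 in Slc30a5, 0.54 in Slc25a3 and 0.81 in Slc11a2. The steady Slc30a5 and the variable Slc39a8, both zinc transporters, each hold a metal element core in the windows shown above.

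Slc9b1, a sodium and proton exchanger with a range of 0.29, belongs with them by its counts (0.18 without clone 11), but 28.8% of its counts came from protein-coding transcripts. In 16 of the 211 members such transcripts held under 50% of the counts, against a median of 95.7% over the members, so for these the level speaks of noncoding or incomplete transcripts of the gene. Slc39a7 shares 80.7% of its exon bases with a noncoding transcript on the same strand, and its level is uncertain by the way the authors' tool divides such reads. Exon bases were shared with a protein-coding gene on the opposite strand in 21 members and on the same strand in 5.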

How the data were processed

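RNA of 9 clones was sequenced. Reads went through kallisto 0.43.1, with Trimmomatic 0.33, FastQC and CASAVA 1.8 also listed, per the submitters' processing notes. The authors' deposited tables give an estimated count, not whole and not scaled, and a TPM value per transcript, scaled by effective length and library. Both were summed to genes by GENCODE M21 (GRCm38), and transcripts without a match held 0.641 to 0.773% of the counts. CPM used the clone's matched total for the choice of members and TMM effective library sizes (edgeR 4.0.16, R 4.3.3) for levels and ranges, which add a prior count of 2. The rest was computed in Python 3.11.15 (pandas 2.3.3, numpy 2.4.6, scipy 1.17.1), and range steps were tested on simulated data. No group, test or p-value was used, and intervals and floors (3 counts, confidence level of 95%) cover counting error only. Members, gene lists and motifs were chosen with earlier results of these data known. The genes named were the 12 with the largest range, the 12 with the highest median TPM, up to 4 per class with the largest range and 1 with the highest TPM, members with a clone apart, the 8 with the smallest range from a mean of 20 CPM, 3 genes on each side of the threshold and the list of 10 response carriers. Of the members chosen by this rule, 2 are not reported here by name. DESeq2 1.42.0 gave the alternative size factors.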

Additional observations from a re-analysis of the deposited data

How the results depend on the processing

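Median-ratio size factors, plain CPM, a prior count of 0.5, removal of members with few counts in coding transcripts and each clone left out kept the count of members with a range of 1 or more, that with a range of 2 or more and the median range within 1.5 times of the values given. Leaving out 1 clone gave 71 to 83 members with a range of 1 or more, 15 to 17 with one of 2 or more, a median range of 0.84 to 0.88, 42 to 51 members with a widest gap of 0.5 or more and 1 to 8 members with a clone apart. That last count was 8 without clone 10, 6 without clone 11 and 3 without clone 17, since a pair of clones that stand apart then leaves 1. It was 2 with a prior count of 0.5 and 0 with the chromosome median taken off. Without any filter on level the counts were 184, 44, 145 for the gap and 6 for a clone apart, because genes with few counts entered. With a mean of 5 CPM or more they were 44, 7 and 21, because low members left. On log2(TPM + 1), which holds down low genes, 4 members had a range of 2 or more, 19 a gap and 0 a clone apart, and the range of Slc9b1 was 0.29 with the opposite order of its highest and lowest clone. On that scale the range of 29 more of the 59 members that the naming rule chose left the counting interval. Without clones 10 and 11, an alternative chosen after seeing the data, 7 members had a range of 2 or more and 2 a clone apart, and the range left the counting interval in 18 of the 59. The number of members was 211 with all counts of the file as total and 216 with longer symbols. Depth limits members near 1 CPM, where 1 clone can rest on 2 or 3 counts. No paired analysis was possible because the clones form no groups.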

Other observations

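Solute carriers whose symbols do not follow the Slc form were not among the 211. Of a list of 38 such genes 37 were measured and 25 expressed, with a median range of 0.89, and 11 had a range of 1 or more, where 33.7% of all expressed coding genes did (median 0.77). Mfsd2a, which imports lysophospholipids with omega-3 chains, had a range of 3.18 with clone 11 highest and clone 8 lowest. The organic anion carriers Slco3a1 and Slco5a1 ranged over 2.86 and 2.09, both highest in clone 11. Of the subunits of the mitochondrial pyruvate carrier, Mpc1 had a range of 1.22 and Mpc2 one of 0.61. Mtch2, a carrier-like protein of the outer mitochondrial membrane, was steady with 0.32. These genes were named after their values were seen.

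Proteins that hold or regulate carriers were measured as well, and 4 of 11 expressed ones had a range of 1 or more, against the same 33.7%. Bsg, the chaperone of monocarboxylate carriers, had a range of 0.47, and Oxsr1, a kinase that controls chloride cotransporters, one of 0.36. Slc9a3r1, a scaffold of ion carriers on chromosome 11, peaked in clone 4 (246 CPM) and was lowest in clone 8 (96.7 CPM). Pdzk1, another scaffold, peaked in clone 1 (6.51 CPM) and was lowest in clone 17 (0.936 CPM).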
